A study of Solanum lycopersicum and Solanum tuberosum and Capsicum annuum and Nicotiana tabacum with 10 samples.

Results

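Flavonol synthase (FLS) was represented by 4 clones on a potato cDNA microarray, each spotted at 2 positions, so that 8 of 32448 spots and 4 of 15360 clones carried FLS as their only gene symbol. The clones are called here by the number of their first spot. Clone 137682 was repeated at spot 138526, clone 142452 at 144311, clone 142699 at 143543 and clone 151273 at 152117. The gene was selected on the measured mean log2 ratios of its clones, which went in different directions, so those means are given as a description and were not tested.

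FLS is an iron- and 2-oxoglutarate-dependent dioxygenase that converts dihydroflavonols into flavonols such as quercetin and kaempferol, which accumulate in leaves as glycosides. The dihydroflavonols are made one step earlier by flavanone 3-hydroxylase (F3H), a dioxygenase of the same superfamily. Dihydroflavonol 4-reductase takes the same substrates towards anthocyanins, so FLS stands at a branch point of the pathway.

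Leaf RNA of 5 query species, tomato, pepper, tobacco, Nicotiana benthamiana and petunia, was labelled with Cy3 and hybridized together with Cy5-labelled potato leaf RNA, on 2 arrays per species and 10 arrays in all. All plants, potato included, were untreated, grew at 25°C with 16 h of light, and gave mature leaves after 4 to 6 weeks. The same potato extract went onto every replicate 1 array and another one onto every replicate 2 array, and the dyes were never swapped. Separate plants are not named in the labels for the replicates of a species, and the p-values therefore cover the spread between 2 extracts, which may be technical.

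Each value is a normalized log2 ratio between the query species and potato. The deposited table does not state which channel is on top. A positive value likely means a brighter signal in potato, because the array titles name potato first and because the difference to tomato, the closest relative of potato among the query species, was skewed towards positive values in 8 of 8 comparisons (skewness 0.03 to 0.62, all sharing a tomato array). Signs below follow that reading, and every linear ratio is query species over potato. Between 9279 and 10439 clones had a value on an array, the array medians lay between -0.08 and -0.02, and the values of duplicate spots correlated across clones with r of 0.95 to 0.97, with a median absolute difference of 0.15. The only leaf marker of the list used here that was on the array as a single symbol, PSBR, had a value for 5 of its 6 clones, and a ratio between leaves cannot show that the tissue was leaf. In such ratios a smaller number of cells with a transcript, less transcript per cell and weaker binding to the potato probe cannot be told apart. Potato was always labelled with Cy5 and the query species with Cy3. A dye effect on a clone therefore cannot be told apart from a difference between potato and the query species. Arrays of the same replicate also shared their potato extract, so equal signs across species are not independent. The sequences of the clones were not analysed here, so which stretch of the FLS transcript each one holds and which related transcripts it may bind were not tested.

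Clone 151273 had large positive ratios, likely a much brighter signal in potato, on every array with a value. Its mean log2 ratio over the 5 species was 5.53 (8 arrays), a linear ratio of 0.0217. The pooled SD between arrays was 0.50, from pepper, tobacco and petunia, the 3 species with a value on both arrays. On the replicate 1 arrays the log2 ratio of pepper was 5.64, that of tobacco 6.14, that of N. benthamiana 5.64 and that of petunia 6.64, with no value in tomato. On the replicate 2 arrays it was 4.06 in tomato, 6.14 in pepper, 5.64 in tobacco and 5.64 in petunia, with no value in N. benthamiana. Tomato, measured on 1 array, had the lowest of the 8 values and did not overlap the other species. Petunia had the highest single value, on its first array, while its second array gave 5.64 from 1 spot.

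The size of these ratios was limited by rounding, since the table was made from linear ratios kept to 2 decimals. Of the 20 possible spot values of clone 151273, 15 were present. Both tomato spots stood at a ratio of 0.06, 9 other spots at 0.02 and 4 at 0.01. A ratio of 0.06 stands for any log2 ratio between 3.94 and 4.18, one of 0.02 for 5.32 to 6.06, and one of 0.01 for 6.06 to 7.64. The gap between tomato and the other species is therefore at least 1.14 on the log2 scale, while steps between pepper, tobacco, N. benthamiana and petunia are steps of the last decimal. With every spot at its bounds, the mean over species could lie between 5.19 and 6.00. Ratios of 0.02 or less made up 170 of 181620 spot values on all arrays (0.0936%).

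Clone 142699 had the opposite sign on all 10 arrays, likely brighter in each query species than in potato. Its mean log2 ratio was -1.43 ± 0.64 (pooled SD, 10 arrays), a linear ratio of 2.69. The values on replicate 1 and 2 were -0.70 and -1.55 in tomato, -1.63 and -1.12 in pepper, -1.82 and -1.02 in petunia, -1.98 and -0.76 in tobacco, and -2.34 and -1.36 in N. benthamiana. N. benthamiana had the lowest species mean, -1.85 ± 0.69, and tomato the highest, -1.13 ± 0.60 (SD, n = 2 each), but the arrays of these species overlapped. Replicate 2 lay above replicate 1 in 4 of 5 species, and below it in tomato.

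Clone 137682 was also negative on average, at -0.92 ± 0.68 (pooled SD, 10 arrays), a linear ratio of 1.89. It was negative on 9 of 10 arrays. The values on replicate 1 and 2 were -0.87 and -2.30 in tomato, -0.63 and -1.74 in N. benthamiana, -0.78 and -1.61 in pepper, -0.08 and -0.61 in petunia, and 0.04 and -0.62 in tobacco. Within each replicate, tobacco and petunia lay above tomato, pepper and N. benthamiana. Replicate 2 was lower than replicate 1 in all 5 species, by 0.53 to 1.43, with replicate means of -0.46 for replicate 1 and -1.37 for replicate 2. The species means were -1.58 ± 1.01 in tomato, -1.19 ± 0.59 in pepper, -1.18 ± 0.79 in N. benthamiana, -0.34 ± 0.37 in petunia and -0.29 ± 0.46 in tobacco (SD, n = 2 each).

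Clone 142452 stayed near 0, with a mean of 0.04 ± 0.16 (pooled SD, 10 arrays), a linear ratio of 0.974. It was positive on 5 arrays and negative on 5, between -0.31 on the first petunia array and 0.37 on the second tomato array. Its species means were 0.23 ± 0.20 in tomato, 0.14 ± 0.10 in pepper, 0.05 ± 0.20 in N. benthamiana, -0.07 ± 0.03 in tobacco and -0.17 ± 0.20 in petunia (SD, n = 2 each). Both arrays were on the same side of 0 only in tomato and pepper, which were positive, and in tobacco and petunia, which were negative.

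**Figure D1:**
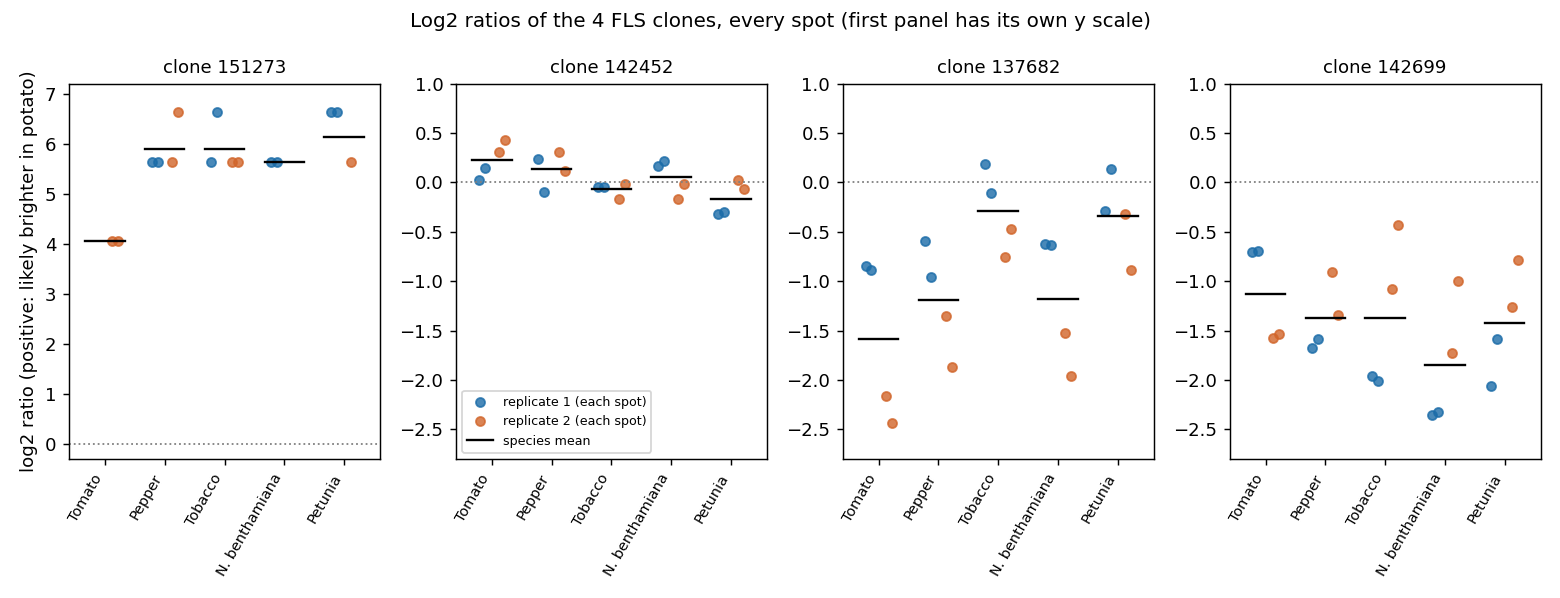
Log2 ratio (y axis, positive likely brighter in potato) of every spot of the 4 FLS clones in the 5 query species (x axis), with replicate 1 in blue, replicate 2 in orange and the species mean as a black line; the panel of clone 151273 has its own y scale. Clone 151273 lies between 4.06 and 6.64, clone 142452 lies around 0, and clones 137682 and 142699 lie mostly below 0.

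Duplicate spots on the same array were compared to show the error within an array. The median absolute difference between duplicate spots was 0.33 for clone 137682, 0.13 for clone 142452 and 0.26 for clone 142699, and the widest was 0.73, in clone 142699. For clone 151273 the median was 0 and the widest 1, which is the step between ratios of 0.01 and 0.02.

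Among the 9784 clones with a value in each species, clone 151273 had the highest mean as deposited, above a second-highest clone at 5.38. That value lies within the 5.19 to 6.00 that rounding allows for clone 151273, so the top rank is not settled. On 5 of its 8 arrays no other clone was higher, though on some of them others tied with it, whereas on the tomato array 47 clones were higher. Clone 142699 was near the other end, with 223 clones (2.28%) below it, and clone 137682 had 1141 clones (11.7%) below it. Clone 142452 was close to the middle, with 53.2% of clones below it. The range between the lowest and highest clone mean, 6.95, was the widest of the 176 genes with several clones. The next were LOC102577893 with a range of 4.77, LOC102587499 with 3.45 and PR1B, a pathogenesis-related protein of the PR-1 family, with 2.81. FLS was chosen for this range, so its rank is no independent finding.

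**Figure D2:**
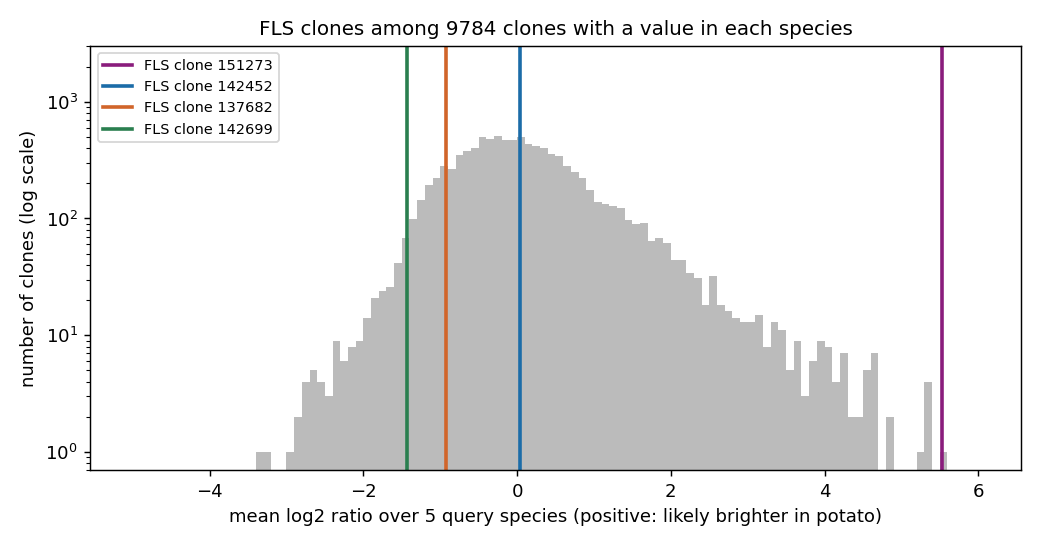
Histogram of the mean log2 ratio over the 5 query species (x axis, positive likely brighter in potato) for 9784 clones, with the number of clones on a log y axis; vertical lines mark the 4 FLS clones. Clone 151273 stands at the right end at 5.53, clone 142452 at 0.04, clone 137682 at -0.92 and clone 142699 at -1.43.

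The gaps between clones were also read within each array, where both clones met the same labelled RNA. Clone 142452 was above clone 142699 on 10 of 10 arrays, by 0.67 to 2.53. All of the other 3 clones were below clone 151273 on 8 of 8 arrays. The gaps to it were -8.46 to -5.61 for clone 142699, -7.75 to -6.11 for clone 137682 and -6.95 to -3.69 for clone 142452. The order of the remaining clones was not fixed. Clone 137682 was above clone 142452 on 2 of 10 arrays, those of tobacco replicate 1 and petunia replicate 1. It was above clone 142699 on 6 of 10 arrays, with gaps between -0.75 and 2.02, and in tomato it was the lower of the pair on both arrays.

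**Figure D3:**
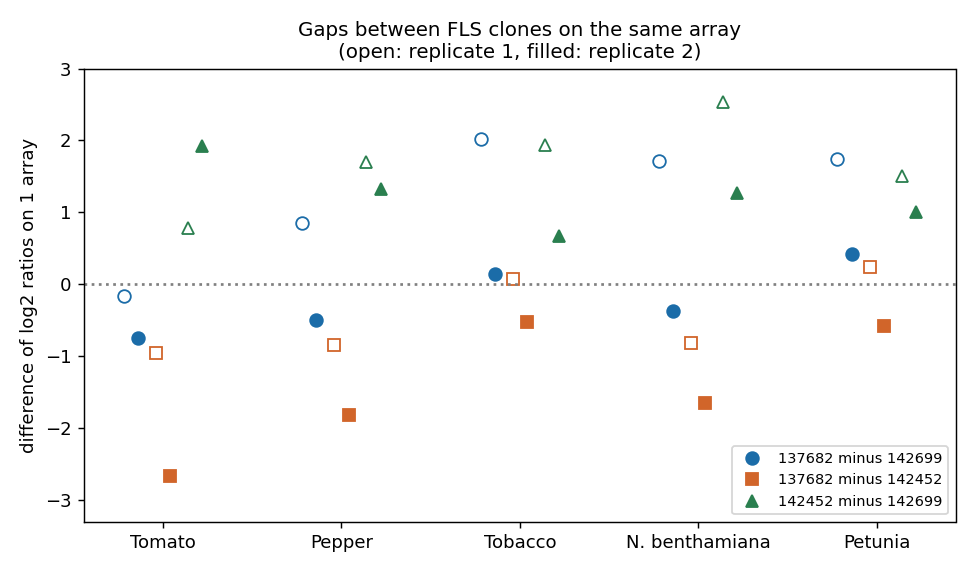
Difference of log2 ratios between FLS clones on the same array (y axis) by query species (x axis) for the 3 FLS clones measured on every array; open symbols are replicate 1 and filled symbols replicate 2. The gap of clone 142452 minus clone 142699 is above 0 on all 10 arrays, while the gaps of clone 137682 to both other clones change sign between arrays.

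Whether a gap between clones varied with the query species was not used in selecting the gene, and it was tested by an exact permutation of the species labels (two-sided by construction) over the 6 pairs of clones. None passed, with exact p between 0.155 and 0.863 and adjusted p between 0.706 and 0.863 in the permutation test. The design allowed an exact permutation p as small as 0.00106 with 10 arrays and 0.00238 with 8. Among the 3 clones measured on every array, the lowest exact permutation p (0.274) was that of clone 137682 minus clone 142452, a gap that averaged -1.81 in tomato, -1.33 in pepper, -1.23 in N. benthamiana, -0.22 in tobacco and -0.17 in petunia. Permuting within replicates gave an exact p of 0.025 for this gap and 0.025 for clone 137682 minus clone 142699 (permutation, adjusted p = 0.075 for both).

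Differences among the query species were tested with limma, since the mean over species cancels in them. Potato cancels too where the species compared have values on the same replicates, which does not hold for clone 151273. Of all clones tested, 30.7% passed the F test for any difference among the 5 species at an adjusted p of 0.05. Of the 4 FLS clones, 0 passed. The adjusted p from limma was 0.0637 for clone 151273, 0.220 for clone 137682, 0.508 for clone 142452 and 0.756 for clone 142699, with 1 unadjusted p under 0.05, that of clone 151273. With the replicate as a block, which removes a shift shared by all arrays of one potato extract, 59.6% of all clones passed. Then 2 FLS clones passed, clone 137682 with an adjusted p of 0.00328 (0.0144 with a random block) and clone 151273 with 0.0305 from limma, while clone 142452 had 0.358 and clone 142699 had 0.549. The share of FLS clones that passed was thus below the share over all clones without the block, and at 2 of 4 near it with the block.

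Pairs of species were compared in the same fit, and 10.3% of all clone-pair tests passed without the block and 24.7% with it. In clone 137682, 0 of 10 pairs passed without the block (2 at an unadjusted p under 0.05), and 6 of 10 with it. With the replicate as a random in place of a fixed block (estimated correlation 0.375), only 2 of 10 passed. The 6 with the fixed block were all the pairs between tobacco or petunia on one side and tomato, pepper or N. benthamiana on the other. Tobacco averaged -0.29 and tomato -1.58, a difference of 1.29 with an adjusted p of 0.160 from limma without the block and 0.00341 with it. The 95% confidence interval was 0.09 to 2.49 without the block and 0.78 to 1.80 with it. Petunia was higher than tomato by 1.24 (adjusted p = 0.00413 with the block, limma). The differences with pepper and N. benthamiana in place of tomato were smaller, 0.90 for tobacco minus pepper (adjusted p = 0.0178), 0.85 for petunia minus pepper (0.0225), -0.89 for N. benthamiana minus tobacco (0.0187) and 0.84 for petunia minus N. benthamiana (0.0237), all from limma with the block.

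No pair within these sets of species passed in clone 137682 with or without the block. Petunia minus tobacco was -0.05, with an interval of -1.25 to 1.15 without the block. N. benthamiana minus pepper was 0.01 (interval -1.19 to 1.21). Intervals of this width do not show that the species had the same level.

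In clone 151273, 3 of 10 pairs passed without the block and 3 with it, all with tomato as the lower species. Petunia averaged 6.14 and tomato 4.06, a difference of 2.09 (95% confidence interval 0.997 to 3.17, adjusted p = 0.0331 from limma). Pepper and tobacco each averaged 5.89, and each was higher than tomato by 1.84 (0.75 to 2.92, adjusted p = 0.0495 from limma for both). N. benthamiana, at 5.64, was 1.59 above tomato, which did not pass (adjusted p = 0.111 from limma). The remaining pairs differed by -0.25 to 0.50 without the block and did not pass. Tomato had a value only on replicate 2 and N. benthamiana only on replicate 1, so potato did not cancel in all of these differences. With the replicate block, petunia was 1.92 above tomato, pepper and tobacco each 1.67, and N. benthamiana 1.25. Tomato rests on 1 array, whose error was taken from the other species, and the fit without the block had 3 residual degrees of freedom for this clone. The clone's own part of that error comes from pepper, tobacco and petunia. Their spots stood only at ratios of 0.01 or 0.02, so it reflects steps of rounding, and the intervals and p-values rest on it. The calls against tomato were all lost when either pepper array, either tobacco array or the first tomato array, on which this clone has no value, was left out. Without the second tomato array the clone has no tomato value, so no pair with tomato could be tested.

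Clones 142452 and 142699 had 0 of 10 pairs past the threshold each, with or without the block, and 0 pairs at an unadjusted p under 0.05. The widest difference in clone 142452 was petunia minus tomato, -0.39 (interval -0.88 to 0.09, adjusted p = 0.283 from limma). The widest in clone 142699 was N. benthamiana minus tomato, -0.73 (interval -1.85 to 0.40, adjusted p = 0.406 from limma).

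**Figure D4:**
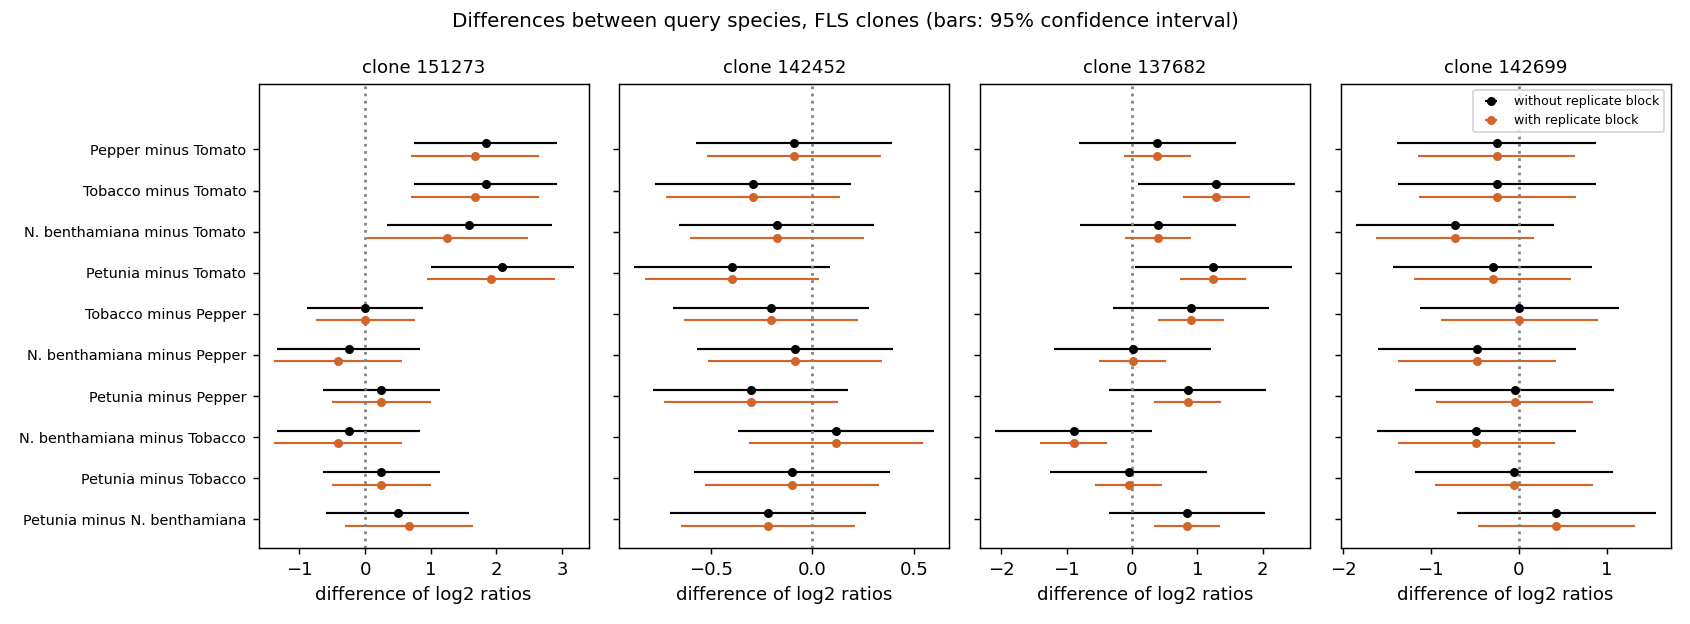
Difference of log2 ratios between pairs of query species (x axis) for each FLS clone, with 95% confidence intervals as bars, without (black) and with (orange) the replicate as a block; each panel has its own x scale. In clone 137682 the 6 pairs that set tobacco or petunia against tomato, pepper or N. benthamiana have intervals clear of 0 with the block, and in clone 151273 all pairs with tomato lie to the right of 0.

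Few other genes of the pathway could be named, since genes were matched by symbol only and 14455 of 15360 clones had no symbol. Of 34 listed symbols of phenylpropanoid and flavonoid genes, 1 was present as a single symbol, F3H, with 1 clone (155665). Pathway genes among the clones without such a symbol could not be recognised. Its log2 ratios were -1.70 and -1.85 in tomato, -1.71 in petunia, -0.67 in tobacco, -0.53 in pepper and -0.19 in N. benthamiana. F3H was therefore negative, likely brighter in the query species, on all 6 arrays with a value. Its sign was that of the means of FLS clones 142699 and 137682 and opposite to clone 151273. Clone 142452 was positive on 5 arrays and negative on 5. Array medians were also below 0, from -0.08 to -0.02, so no conclusion on the pathway is drawn from the sign of 1 clone. Tomato was the only species with both arrays, and there F3H differed from potato by -1.78 (SE 0.17, adjusted p = 0.000696 from limma). Most clones tested differed from potato, 51.2% of them in tomato, 56.2% in pepper, 58.5% in tobacco, 58.9% in petunia and 60.6% in N. benthamiana, so the call on F3H is no mark of that clone. Without either tomato array, F3H could not be tested there. Among the species, F3H passed the F test with an adjusted p of 0.0343 from limma, on 6 values with 1 residual degree of freedom. The other 4 species had 1 array each, some of replicate 1 and some of replicate 2, so the spread of this clone comes from its tomato arrays, and the fit with the replicate block could not be made.

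Of 10 listed symbols of other 2-oxoglutarate-dependent dioxygenases, 1 was present as a single symbol, GA2OX1, a gibberellin 2-oxidase that inactivates gibberellins (clone 132530). Its log2 ratios were -0.43 and -1.15 in tomato, -1.93 in pepper, -1.03 and -1.62 in tobacco and -0.68 in N. benthamiana, with no value in petunia. Of the 2 species with both arrays, 2 passed, tobacco at -1.32 (SE 0.24, adjusted p = 0.00400 from limma) and tomato at -0.79 (SE 0.24, adjusted p = 0.0322 from limma). Of all clones tested, 58.5% passed in tobacco and 51.2% in tomato, so these calls are no mark of this clone. As with F3H, all values were negative.

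For the 3 FLS clones measured on all 10 arrays, the clones with the most similar profile were sought among 629 clones with a single symbol and a value on every array. The measure was Pearson's r over the 10 arrays, which share potato extracts, and it is given as a description. The 3 FLS clones had no neighbour in common among the 3 closest to each. With 3 picks from 629 clones, unrelated profiles would seldom share one either, so no conclusion is drawn from this. Clone 137682 was most like LOC102588954 (r = 0.90, mean log2 ratio -0.85), LOC102605614 (r = 0.90, mean -0.79) and LOC102586427 (r = 0.89, mean 1.61). Clone 142452 was most like LOC102577643 (r = 0.81, mean 0.67), LOC102596994 (r = 0.80, mean -0.45) and LOC102579688 (r = 0.77, mean 0.06). Clone 142699 was most like LOC102577567 (r = 0.83, mean -0.93), LOC102592556 (r = 0.80, mean -0.59) and LOC102577605 (r = 0.75, mean -0.12). A high r went with unlike mean levels, as in LOC102586427, which varied between -0.40 and 3.19 while clone 137682 varied between -2.30 and 0.04.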

How the data were processed

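The deposited values were log2 ratios of each spot of 10 arrays, in the authors' series matrix. Per the study's methods, local background was subtracted, spots that were not found in a channel, were saturated or were too small were excluded, and quantile normalization was done with limma (version not given in the sources used here). All values lay within 0.002 of the log2 of a ratio kept to 2 decimals. Gene symbols came from the platform annotation: 815 clones had a single symbol, 90 several and 14455 none, and only single symbols were named.

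Duplicate spots were averaged per array, and a lone spot was used as it stood. limma 3.58.1 in R 4.3.3 fitted 1 coefficient per query species over all clones, with Benjamini-Hochberg adjustment over all clones (pairs: over all clones and the 10 pairs) and a threshold of 0.05. The model was checked on simulated data. Species against potato were tested where both arrays had a value, except that, with an array left out, its species was tested on the remaining array with the spread of the other species. Gaps between clones were tested by exact permutation in Python 3.11.15. Same-numbered arrays share a potato extract per the labels, and in 10 of 10 pairs of species their deviations correlated (0.29 to 0.68 over 7823 clones), so the replicate numbers pair the arrays. Named genes were all FLS clones, the 3 clones most correlated with each FLS clone, and the members of the pathway lists found by symbol. The gene, the lists and the tests were chosen with earlier results of these data known. No depth is defined for arrays, and their number limits the precision. Alternatives were the block, array scaling, single spots, a cap on extreme ratios, a stricter threshold, and leaving out each array.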

Additional observations from a re-analysis of the deposited data

Results flagged for a closer look

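Differences among the query species that passed a test are repeated here with their values. With the replicate as a block, FLS clone 137682 differed among species with an adjusted p of 0.00328 from limma, and clone 151273 with 0.0305. In clone 151273, petunia minus tomato had an adjusted p of 0.0331, pepper minus tomato 0.0495 and tobacco minus tomato 0.0495, all from limma without the block and all resting on 1 tomato array. F3H differed among species with an adjusted p of 0.0343 from limma, on 6 values with only tomato replicated, and had no value with the block.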

How the results depend on the processing

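Of 368 values recomputed under the alternatives, 335 were kept. Kept means a p-value on its side of the threshold, a mean within the spread between arrays, or a count changed at most 1.5 times. Of the others, 20 lost a call or a larger part of a count, 12 gained one and 1 mean moved. A change of sign was not looked for. Some values could not change by construction, so the 335 are no measure of stability. Centring the arrays leaves gaps within an array as they were, and a stricter threshold adds no call. The mean of clone 151273 was 4.27 when linear ratios under 0.05 were set to 0.05, and the other 61 of 62 means stayed within the spread between arrays. With 1 array left out, a mean cannot move beyond that spread by construction, so those means are no test of stability. For clone 137682 the adjusted p among species was 0.00328 with the replicate as a fixed block and 0.0144 as a random block, with 6 and 2 pairs called instead of 0. For clone 151273 it was 0.0305 and 0.0210 with those blocks, 0.0234 with values from both spots only, 0.0487 with the first spot only, and between 0.0307 (without petunia replicate 2) and 0.103 when 1 array was left out, against 0.0637. Its 3 called pairs became 0 after scaling of the arrays, with the second spot only, with the cap or at a threshold of 0.01, 1 with the first spot only, and 0 to 3 with 1 array left out. Without tomato replicate 2 this clone has no tomato value, so its mean over 5 species has no value. GA2OX1 was called in 1 instead of 2 species with values from both spots only and at 0.01, and in 1 (without tomato or tobacco replicate 2) to 3 (without pepper replicate 1) with 1 array left out. F3H was called in 0 (without either tomato array) to 2 species (without petunia replicate 1) instead of 1. These added calls, in pepper for GA2OX1 and petunia for F3H, come from species with 1 array, tested only there and with the spread of the other species. Over all clones, 5745 passed the F test with the fixed block, 5571 with the random block and 912 at 0.01, against 2997, and 1189 (without tomato replicate 1; 1223 without tomato replicate 2) to 3158 with 1 array left out. The block changed no call on the gaps between clones. The cause of these changes was not tested. Rounding to 2 decimals limits every value near a ratio of 0.01, and 2 arrays per species limit all intervals.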
